A study of Mus musculus with 6 samples.

Results

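The 8 SMAD genes of the mouse (Smad1, Smad2, Smad3, Smad4, Smad5, Smad6, Smad7 and Smad9) were followed in RNA from embryonic tooth germs. They were picked by gene symbol, with earlier results of these data known, and all 8 were present among the 23420 symbols of each count table. The series compared tooth germs of C57BL/6 embryos at stage E15.5 (days of embryonic development), with 3 libraries labelled wild type (WT) and 3 labelled Smad7-/-, none of which carried any further allele or treatment in the labels. How the Smad7 allele was made, which exons it lacks, and whether a library held 1 embryo or a pool are not given in the sources used here. P-values therefore measure the spread between these libraries, which may be technical in part.

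SMAD proteins carry signals of the TGF-beta superfamily from receptors at the cell surface to genes in the nucleus. Receptor SMADs are phosphorylated by type I receptors: Smad2 and Smad3 mainly after TGF-beta and activin, and Smad1, Smad5 and Smad9 mainly after BMPs. They then bind Smad4, the common SMAD, and enter the nucleus, where the complexes act on target genes. Smad6 and Smad7 are inhibitory SMADs: Smad6 acts mostly on the BMP branch, whereas Smad7 binds type I receptors of both branches and recruits ubiquitin ligases to them. In the tooth germ, BMP and TGF-beta ligands pass between epithelium and mesenchyme while the crown takes shape.

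The libraries held 37591888 to 56575476 counts, and edgeR tested 15284 genes that had enough counts. Levels are given as normalised counts scaled to library size (CPM). Markers of dental epithelium and of dental mesenchyme (10 each) had reads in all 6 libraries. Summed CPM of the mesenchymal markers, 9 of 10 of which were higher in Smad7-/-, ran from 486 to 554 in WT and from 582 to 624 in Smad7-/-. That of macrophage markers, 10 of 10 of which were higher, ran from 121 to 168 and from 205 to 222. Of the epithelial markers 9 of 10 were lower, while their sum overlapped, at 9867 to 10901 in WT and 8445 to 10095 in Smad7-/-. Genotypes did not overlap for 3 of the 10 epithelial markers (Shh, Sp6 and Foxi3), 8 of the 10 mesenchymal markers and 8 of the 10 macrophage markers. Over all tested genes this held for 8.88%. The part of these markers in the results was not tested. In bulk tissue, fewer cells of a type and less RNA per cell cannot be told apart. The libraries also divided across genotype: the first principal component, with 33.5% of the variance, separated WT library 1 and Smad7-/- libraries 1 and 2 (the first set) from the other three (the second set). Only WT library 1 and Smad7-/- library 3 carried reads of the X-silencing RNA Xist above 1 CPM.

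Of the 8 members, all of which passed the filter on low counts, edgeR called 1, Smad7, at an adjusted p under 0.05. Over all tested genes it called 4, or 0.0262%, of which 2 (0.0131%) were lower. Smad7 was also the only member whose WT and Smad7-/- libraries did not overlap, a property of 8.88% of all tested genes. The other 7 members had log2 changes between -0.04 and 0.10, and none of them passed.

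Smad7 had 1097, 934 and 859 counts in WT libraries 1, 2 and 3, which is 21.4, 18.9 and 17.99 CPM. In the Smad7-/- libraries it had 80, 62 and 41 counts, or 2.13, 1.43 and 0.712 CPM. Every mutant library thus lay far below every WT library, which matches the labels, but none was at 0. Mean levels were 19.4 ± 1.77 CPM in WT and 1.42 ± 0.709 CPM in Smad7-/- (SD, n = 3 libraries each), so that 7.32% of the WT level remained. The log2 change was -3.80 ± 0.31 (SE of the fit; 95% interval -4.50 to -3.11; edgeR adjusted p = 0.00749). Taken inside each set, the difference in mean log2(CPM + 0.5) was -3.28 for the first and -3.97 for the second. The first set holds 1 WT library and the second 1 Smad7-/- library. At the low mutant levels the added 0.5 makes these differences smaller, so they are not on the scale of the fit. With the set of libraries as a covariate, the fitted log2 change was -4.06. Without Smad7-/- library 2 the size held, at -3.83, but the adjusted p rose to 0.0887; over all 16 alternatives the adjusted p lay between 4.17e-40 and 0.0887.

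The remaining Smad7 reads differed among the mutant libraries. The 95% exact Poisson interval of the level ran from 1.69 to 2.65 CPM in library 1, from 1.09 to 1.83 in library 2 and from 0.511 to 0.965 in library 3. Libraries 1 and 3 therefore differed by more than counting error, which is all that these intervals cover. The coefficient of variation over the mutant libraries was 49.8%, against 9.10% over the WT libraries. The tables hold 1 count per gene, so the exons from which these reads came could not be told apart. Smad7 lies on chromosome 18 from 75367529 to 75395935 (mm10, forward strand; GENCODE M21), and no other annotated gene overlaps it.

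**Figure D1:**
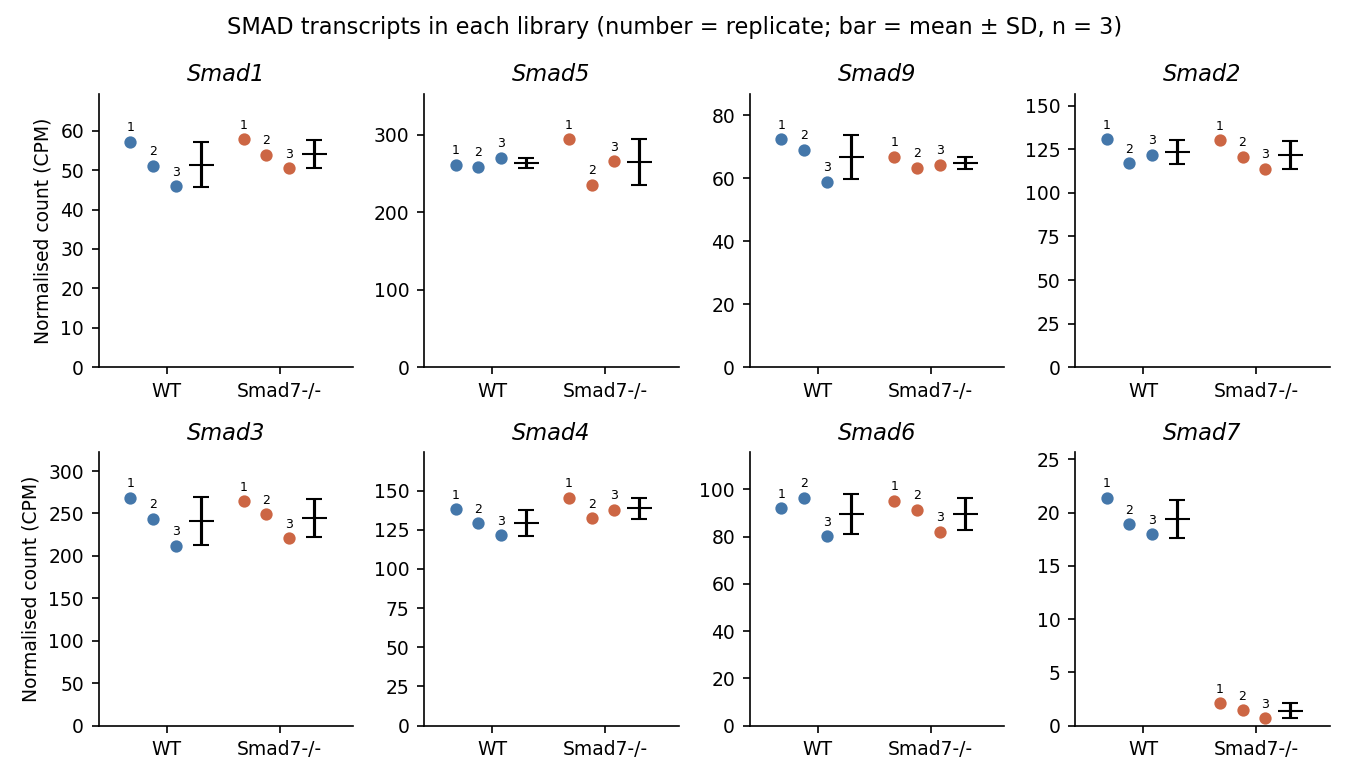
Normalised counts (CPM, y axis from 0, a separate scale for each gene) of the 8 SMAD transcripts in the 3 WT and 3 Smad7-/- libraries; points are libraries with their replicate number, and bars show mean ± SD. Smad7 drops from 17.99 to 21.4 CPM in WT to 0.712 to 2.13 CPM in Smad7-/-, while the groups overlap for the other 7 genes.

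Smad6, the other inhibitory SMAD and itself a transcript known to be induced by BMP signalling, had a mean level of 89.5 CPM in both genotypes (SD 8.44 in WT and 6.75 in Smad7-/-, n = 3). Its values were 91.9, 96.5 and 80.1 CPM in the WT libraries and 95.1, 91.4 and 82.0 CPM in the Smad7-/- libraries. The lowest value of each group was that of library 3, and the group ranges overlapped almost completely. The log2 change was 5.06e-04 ± 0.10 (SE), with a 95% interval from -0.22 to 0.22. The interval leaves room for levels between 0.857 and 1.17 times that of WT. Per kilobase of exon, Smad6 exceeded Smad7 by 6.51 ± 0.608 times in WT (SD, n = 3), the libraries giving 6.06, 7.20 and 6.28. In Smad7-/- the same ratio was 63.0, 90.4 and 163.

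The start of Smad6 is shown because it holds a palindrome, GTCTAGAC, known as a sequence that Smad3 and Smad4 bind. The stretch below is from RefSeq (GRCm38.p6, the assembly of mm10) at chr9:64022056-64022309, reverse strand, and is written 5′ to 3′ from 250 bases before the annotated start. Capitals mark the palindrome, with 4 of its bases before that start and 4 after it. The RefSeq gene record reaches further upstream, to 64022085, and counted from there the whole palindrome lies after the start.
Smad6 promoter: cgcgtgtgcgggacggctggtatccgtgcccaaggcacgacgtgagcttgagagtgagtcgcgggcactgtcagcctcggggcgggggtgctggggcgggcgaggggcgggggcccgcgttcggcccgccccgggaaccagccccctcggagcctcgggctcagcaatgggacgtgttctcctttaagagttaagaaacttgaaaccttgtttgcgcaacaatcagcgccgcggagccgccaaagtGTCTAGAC
GTCTAGAC reads the same on both strands and occurred in 70 of 32851 mouse promoter windows of 300 bases (0.213%). Promoters of 5 members were searched (Smad1, Smad3, Smad5, Smad6 and Smad9), and among these it was found in that of Smad6 alone. Promoters of Smad2, Smad4 and Smad7 were not searched, so the search cannot set Smad6 apart from them. GGCGCC, a GC-rich motif that is also its own reverse complement, was found for Smad9 and in a pair of overlapping windows of Smad5, and in 11.9% of all windows. No base of these matches belonged to both motifs. CAGACA was found on neither strand of these 5 promoters, against 21.04% of all windows. These matches describe letters, not occupied sites.

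The BMP receptor SMADs Smad1, Smad5 and Smad9 did not pass the test. Smad5 had 261, 259 and 270 CPM in the WT libraries and 294, 235 and 265 CPM in the Smad7-/- libraries. Its WT libraries lay close together (coefficient of variation 2.26%), and its mutant libraries were more spread (11.1%). Mutant library 1 lay above the WT range, library 2 below it and library 3 inside it. The log2 change of Smad5 was 0.0092 ± 0.10 (SE; 95% interval -0.21 to 0.23). Smad9 had 72.4, 69.1 and 58.8 CPM in WT and 66.8, 63.3 and 64.3 CPM in Smad7-/-, a log2 change of -0.04 ± 0.10 (interval -0.26 to 0.18). Here the mutant libraries all fell inside the WT range. Smad1 had 57.2, 51.1 and 46.0 CPM in WT and 57.9, 53.9 and 50.6 CPM in Smad7-/-, for 0.07 ± 0.11 (interval -0.16 to 0.31). This interval reached furthest from 0 of those of the 7 members, and its upper end corresponds to a 1.24-fold higher level.

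Neither of the TGF-beta and activin receptor SMADs passed the test. Smad3 had 269, 244 and 212 CPM in the WT libraries and 265, 249 and 221 CPM in the Smad7-/- libraries. Its spread within each genotype (SD 28.5 and 22.2 CPM, n = 3) exceeded the difference between the means, which were 241 and 245 CPM. The log2 change of Smad3 was 0.02 ± 0.11 (SE; 95% interval -0.23 to 0.27). Smad2 had 131, 117 and 122 CPM in WT and 130, 121 and 114 CPM in Smad7-/-, a log2 change of -0.02 ± 0.09 (interval -0.22 to 0.18). Smad3 and Smad1 did not overlap between the sets of libraries, a property of 28.6% of all tested genes: Smad3 lay at 249 to 269 CPM in the first set and at 212 to 244 CPM in the second, and Smad1 at 53.9 to 57.9 and 46.0 to 51.1 CPM. The other 6 members overlapped between the sets.

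Smad4, the common partner, had 138, 129 and 122 CPM in the WT libraries and 146, 133 and 138 CPM in the Smad7-/- libraries. The groups overlapped through WT library 1, the only WT value inside the mutant range. The log2 change was 0.10 ± 0.09 (SE; 95% interval -0.10 to 0.29; unadjusted p = 0.290, adjusted p = 0.999 by edgeR), the smallest p among the 7. The difference in mean log2(CPM + 0.5) was 0.0081 inside the first set and 0.14 inside the second. Across the 7 members none passed in edgeR, 0 had an unadjusted p under 0.05, and DESeq2 and limma-voom called 0 as well. The intervals of the 7 together span 0.833 to 1.24 times the WT level, so larger changes than these lay outside the 95% interval of every one of them.

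**Figure D2:**
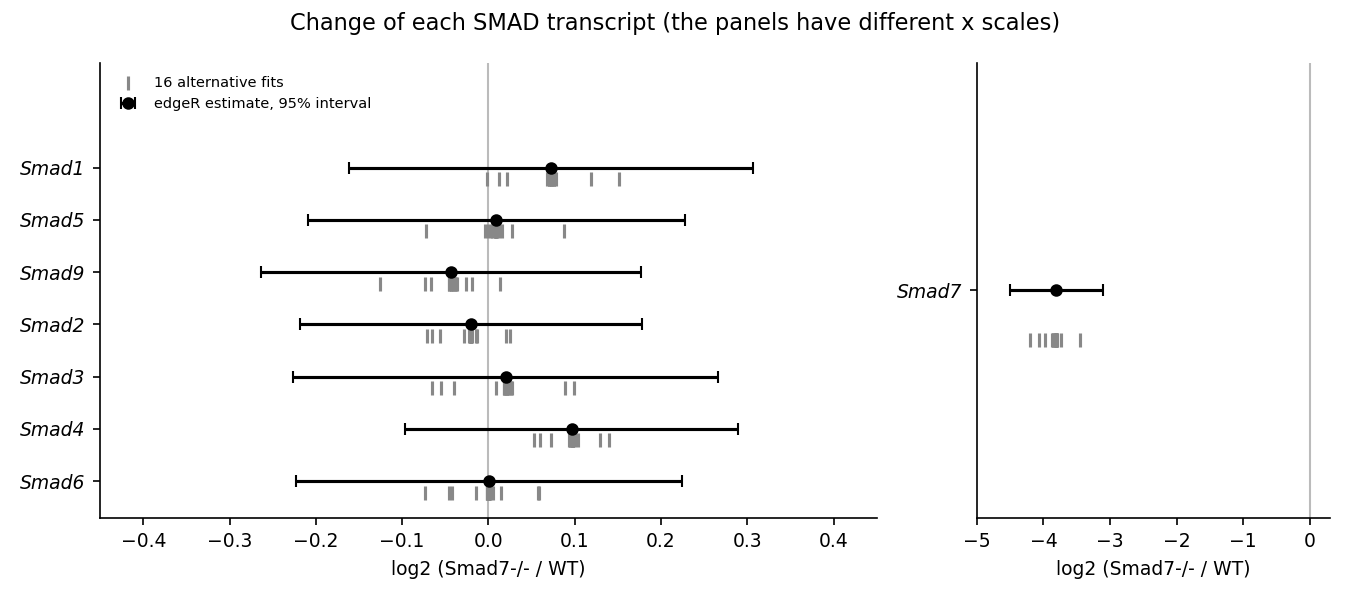
Log2 change (Smad7-/- over WT, x axis, different scale in each panel) of each SMAD transcript with its 95% interval from edgeR (black), and the 16 alternative fits (grey ticks). The 7 members on the left lie between -0.04 and 0.10 with intervals across 0, and Smad7 on the right lies at -3.80.

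To compare genes with each other, levels were divided by the length of all annotated exons (CPM per kilobase, GENCODE M21). In WT, Smad3 was highest at 43.6 ± 5.14 CPM per kilobase (SD, n = 3), followed by Smad5 at 35.5 ± 0.801 and Smad4 at 34.9 ± 2.22, whose ranges overlapped each other. Smad6 came next at 27.9 ± 2.63, then Smad2 at 14.04 ± 0.795 and Smad9 at 12.4 ± 1.31, which again overlapped. Smad1 followed at 8.22 ± 0.896, and Smad7 was the lowest member at 4.30 ± 0.391. In Smad7-/- the order was the same apart from Smad4 at 37.3 ± 1.76 and Smad5 at 35.7 ± 3.96, which changed places within their spread. With these exon lengths Smad2 and Smad9 did not overlap there, and Smad7 was at 0.315 ± 0.157 CPM per kilobase.

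The order depends on the exon lengths for 2 genes. The annotated 3′ part of Smad4 is shorter in GENCODE M21 than in RefSeq, and with the gene ends of RefSeq its exon length rises from 3712 to 7942 bases. Smad4 then falls to 16.3 ± 1.04 CPM per kilobase in WT, below Smad6. Smad2 and Smad9 then just overlap in Smad7-/- too, at 11.326 to 12.95 and 10.73 to 11.328 CPM per kilobase. With the longest coding transcript of each gene, Smad1 lies at 13.6 ± 1.49 CPM per kilobase in WT, overlapping Smad2 and Smad9. Sequence shared between members was checked as well. Of the 50-base windows of each member's longest coding transcript, 0 occurred in a transcript of another member. Only Smad9 had any that occurred in another gene (9 of 5319). On the genome, exons of Smad5 share 100 bases with a small annotated RNA, Gm27301, and exons of the other members overlap no other gene.

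In the make-up of the family, the shares of Smad7 and Smad4 did not overlap between genotypes under any of the length choices. With RefSeq gene ends that of Smad1 did not overlap either. Levels did not overlap for 8.88% of all tested genes, and no such percentage was taken for shares. The level of Smad4 itself overlapped between genotypes, and the difference in its share was not tested. Per kilobase, Smad7 held 2.29% to 2.47% of the family level in the WT libraries and 0.0918% to 0.244% in the Smad7-/- libraries. Smad4 held 19.1% to 19.4% in WT and 20.3% to 21.6% in Smad7-/-, of a sum that includes Smad7. With RefSeq gene ends its share was 10.1% to 10.3% in WT and 10.8% to 11.7% in Smad7-/-. Both inhibitory SMADs together held 17.4%, 18.8% and 17.2% in WT and 15.6%, 16.4% and 15.02% in Smad7-/-. The summed level of all 8 was 181 ± 11.7 CPM per kilobase in WT and 180 ± 11.6 in Smad7-/- (SD, n = 3). The ratio of BMP-branch (Smad1, Smad5, Smad9) to TGF-beta-branch (Smad2, Smad3) receptor SMADs was 0.913, 0.975 and 1.05 in WT and 0.980, 0.888 and 1.06 in Smad7-/-, with no separation of the groups.

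The ratio of all 5 receptor SMADs to Smad4, in which Smad7 plays no part, did not overlap between the groups. It draws largely on the same counts as the share of Smad4, so it is not separate from that share. Levels did not overlap for 8.88% of all tested genes, and no such percentage was taken for ratios. The ratio was 3.26 in each WT library, and 3.16, 3.10 and 2.93 in Smad7-/- libraries 1, 2 and 3. The 3 WT values lay close together (SD 0.002). With no division by length their SD was 0.0567 on a mean of 5.76, so this closeness depends on how the members are weighted. The groups stayed apart with each of the other length choices, for instance at 5.73 to 5.83 in WT and 5.19 to 5.59 in Smad7-/- with no division by length. These choices only weight the same counts differently, so they are not independent support. The BMP-branch to TGF-beta-branch ratio and the ratios of Smad3 to Smad2 and of Smad5 to Smad1 overlapped between genotypes. The ratio of receptor SMADs to Smad4 is a score over members seen after the values were known, and it is given without a test.

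**Figure D3:**
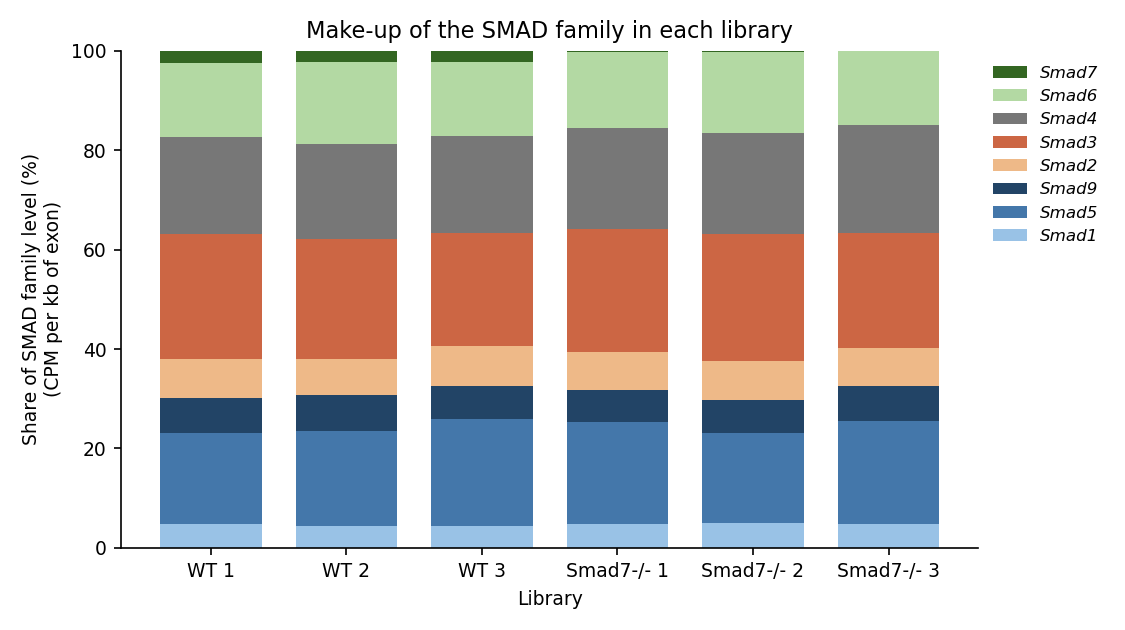
Share of each SMAD transcript in the summed level of the family (CPM per kilobase of exon, %, stacked from 0 to 100) in each of the 6 libraries. Smad7 (dark green) shrinks from over 2% to under 0.3%, and BMP-branch (blue) and TGF-beta-branch (orange) SMADs hold about equal parts in all libraries.

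Several members are neighbours on the genome. Smad4, Smad7 and Smad2 lie in that order on chromosome 18, with gaps of 1.66 Mb and 0.846 Mb, and Smad3 and Smad6 lie 195 kb apart on chromosome 9. Apart from Smad7 itself, 24 tested genes start within 2 Mb of the start of Smad7, among them Smad2 and Smad4. None of these passed in edgeR (1 with an unadjusted p under 0.05), DESeq2 or limma-voom, and their median log2 change was 0.02, against -0.0028 over all tested genes. The groups did not overlap for 2 of the 24 (8.33%), near the 8.88% of all tested genes. Nearest to Smad7 were Ctif at -0.0020 ± 0.09 (log2, SE) and Zbtb7c at 0.25 ± 0.14 on the higher-coordinate side, and Dym at 0.03 ± 0.10 and BC031181 at -0.08 ± 0.11 on the other. Among neighbours with at least 5 CPM, the endothelial lipase gene Lipg (-0.39 ± 0.17) and Elac1 (0.26 ± 0.15) lay furthest from 0.

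**Figure D4:**
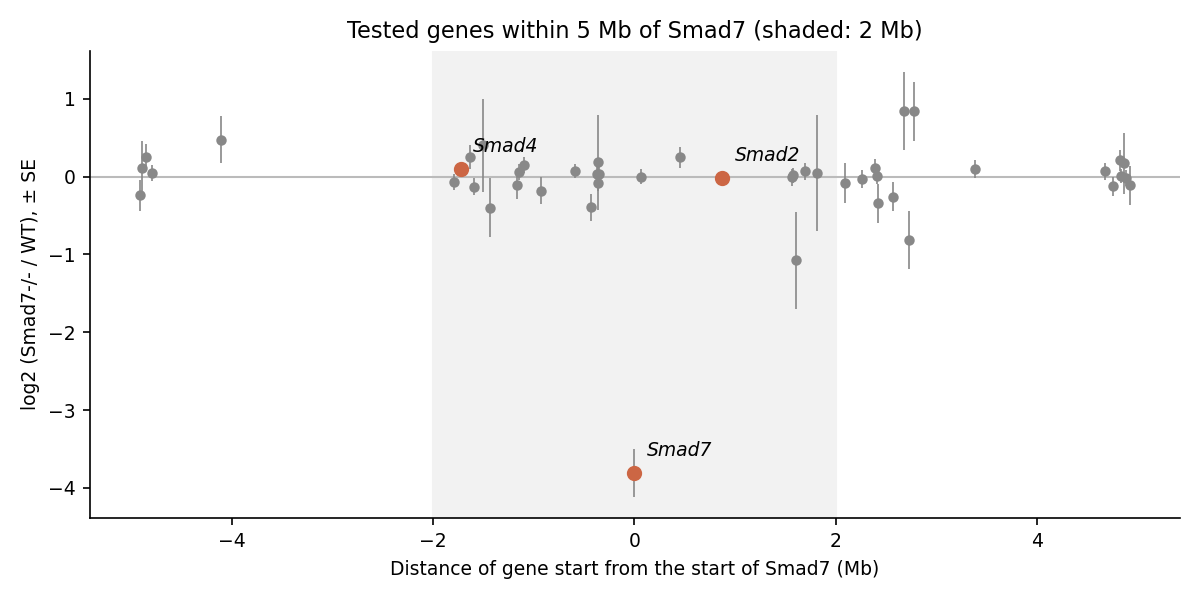
Log2 change (± SE) of tested genes by the distance of their start from that of Smad7 (Mb, x axis); shading marks 2 Mb on each side and SMAD genes are in orange. Smad7 lies at -3.80, while Smad4 and Smad2 lie at 0.10 and -0.02.

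Around the SMADs, the genes that feed into them and respond to them were listed by role. Of 116 tested genes outside the family, edgeR called 0, limma-voom called 0 and DESeq2 called 2, against 59 (0.351%) of the 16816 genes that DESeq2 tested. An unadjusted edgeR p under 0.05 was found for 11 of them, 10 higher and 1 lower. Over all tested genes this held for 786 (5.14%), of which 499 (3.26%) were higher and 287 (1.88%) lower. Their median log2 change was 0.04, and groups did not overlap for 17 of them (14.7%, against 8.88% of all tested genes).

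No gene upstream of the SMADs passed the test. None of 7 type I and 5 type II receptor genes passed, nor did any have an unadjusted p under 0.05. The BMP receptor gene Bmpr1a, the type I gene with the most counts, was at 0.0025 ± 0.10 (log2, SE), and Tgfbr2, which binds TGF-beta ligands, was at -0.07 ± 0.09. Acvr1b and Acvr2a, which serve activins, were at -0.14 ± 0.10 and 0.12 ± 0.11, and Acvrl1, a type I receptor of endothelium, at 0.50 ± 0.25. All 10 endothelial markers were higher in Smad7-/- (median log2 change 0.22, 1 with an unadjusted p under 0.05). Their summed CPM overlapped, at 286 to 431 in WT and 409 to 441 in Smad7-/-, and their part in the values of Acvrl1 and Eng was not tested. Among 17 tested ligand genes 0 passed. Bmp3, an atypical BMP that dampens signalling, had the smallest p, at 24.3 ± 5.25 CPM in WT and 33.7 ± 5.28 CPM in Smad7-/- (SD, n = 3; log2 0.47 ± 0.17 SE). Bmp6 was at 0.50 ± 0.25 and Tgfb2, with the most counts, at -0.08 ± 0.09. Of 6 co-receptor and decoy genes 0 passed, with the endothelial co-receptor Eng at 0.35 ± 0.14, Rgmb at 0.11 ± 0.14 and Neo1 at 0.09 ± 0.14.

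Genes that act on SMAD proteins gave no call either. The 16 ubiquitin ligase and deubiquitinase genes ranged from -0.14 to 0.10, with 0 passing and 0 under an unadjusted p of 0.05. The ligase genes Itch and Wwp1 were at -0.14 ± 0.10 and -0.11 ± 0.10, and the deubiquitinase gene Usp9x at -0.09 ± 0.12. Among 14 genes for anchors, phosphatases and nuclear transport 0 passed, with the importin gene Ipo7 at -0.19 ± 0.11 and the phosphatase gene Ctdsp2 at 0.21 ± 0.12. Of 20 DNA-binding partners and coregulators 0 passed, though 3 had an unadjusted p under 0.05, all higher (3.26% of all tested genes). Runx2, the regulator of bone formation, had the smallest p among them, at 62.6 ± 6.60 CPM in WT and 84.2 ± 8.28 CPM in Smad7-/- (SD, n = 3; log2 0.43 ± 0.11 SE; edgeR adjusted p = 0.630). Runx3 was at 0.48 ± 0.18 and Yap1, with the most counts, at 0.04 ± 0.08.

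Target genes of both branches had members on either side of 0, and edgeR called none. The 20 SMAD2/3 targets had a median log2 change of 0.14, with 14 higher and 6 lower. An unadjusted p under 0.05 was found for 5, all higher (3.26% of all tested genes), and DESeq2 called 2 (0.351% of those it tested). The 2 were Ctgf, a matricellular growth factor, and Cdkn1a, a CDK inhibitor. Ctgf had 83.7, 64.0 and 63.4 CPM in the WT libraries and 132, 114 and 97.4 CPM in the Smad7-/- libraries, so the groups did not overlap (edgeR adjusted p = 0.521; DESeq2 adjusted p = 0.00417). Cdkn1a had 17.4, 16.4 and 16.5 CPM in WT and 35.5, 29.6 and 21.4 CPM in Smad7-/- (edgeR adjusted p = 0.536; DESeq2 adjusted p = 0.00834). Col1a1, the target with the most counts, was at 0.09 ± 0.18. The 15 SMAD1/5 targets other than Smad6 had a median of -0.0052, 6 of them higher, with 0 called by edgeR, DESeq2 or limma-voom. The difference between the medians of the lists was not tested. Of these, Runx2 and the Notch and BMP target Hey1 (-0.23 ± 0.10) had an unadjusted p under 0.05, and the pseudoreceptor gene Bambi was at -0.06 ± 0.10. The mesenchymal and macrophage marker sums given above were higher in the same libraries, and their part in these target values was not tested. Runx2 and Msx1 stand in both the SMAD1/5 target list and the mesenchymal marker list.

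**Figure D5:**
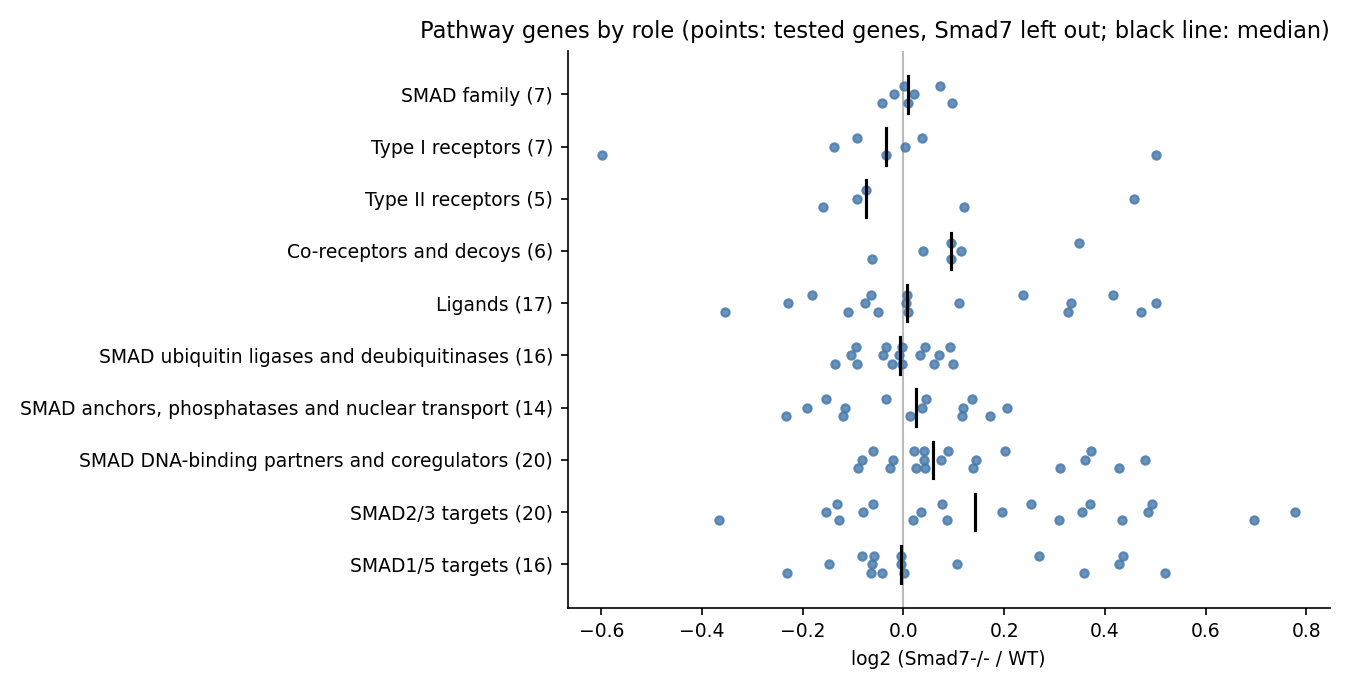
Log2 change (Smad7-/- over WT, x axis) of each tested gene of the pathway by role, with Smad7 left out; the number of genes is in parentheses and the black line is the median. The 7 SMAD genes lie closest together, from -0.04 to 0.10, followed by genes for ubiquitin ligases and deubiquitinases, from -0.14 to 0.10. SMAD2/3 targets have the highest median, 0.14.

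Genes with the most similar pattern over the 6 libraries were sought for each member among 11225 genes whose mean reached 5 CPM. The measure was the root mean square difference of log2(CPM + 0.5), each gene centred on its own mean. No gene lay within 0.1 of Smad7: the nearest was the cyclin gene Ccnd1, at a distance of 1.22, where the spread of Smad7 about its own mean is 1.75. Ccnd1 was itself called lower in Smad7-/- by edgeR (log2 -1.11, adjusted p = 0.0339). Slc4a1, the anion exchanger of red blood cells, followed at 1.29. Slc4a1 had 2.82, 1.38 and 11.5 CPM in Smad7-/- libraries 1, 2 and 3. Library 3 was thus its highest mutant library, but the lowest for Smad7. Markers of red blood cells (8 of 11 in the tables) summed to 35.4 to 50.7 CPM in WT and 16.8 to 28.7 CPM in Smad7-/-, with Hba-a1, Hba-a2, Hbb-b1 and Hbb-b2 at 0, and their part in this likeness was not tested. For the other members the nearest genes were at distances from 0.012 (Rras2 to Smad1) to 0.028 (Tctex1d2 to Smad6), and between 1357 and 3249 genes lay within 0.1. The nearest pairs were Rras2 and Tmem30b for Smad1, B3galt4 and Rps21 for Smad3, and Larp1 and Slc41a1 for Smad4. They were Atp8b2 and Scaper for Smad5, Tctex1d2 and Sft2d2 for Smad6, and Tom1l1 and Dnaaf2 for Smad9. Within the family, the closest pair was Smad1 and Smad3, at 0.039. With 6 libraries and this many genes, such distances only describe these libraries.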

How the data were processed

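RNA of tooth germs was sequenced in 6 libraries (RNeasy extraction and an Illumina TruSeq RNA kit from 1 ug of total RNA, per the labels' protocols). Reads were aligned with HISAT2, per the file headers, to mm10 and counted with featureCounts, per the submitters' processing notes, which also name DESeq2; versions, annotation and strand setting are not given in the sources used here. The deposited values are raw whole-number counts, 1 per symbol. Date-like symbols hold at most 0.223% of a library and were kept.

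Counts were fitted over all genes with edgeR 4.0.16 (R 4.3.3): filterByExpr (minimum count 10, minimum total 15), TMM, robust quasi-likelihood F-test, no covariate, Benjamini-Hochberg adjustment, threshold 0.05. Standard errors and 95% intervals come from the same fit. CPM use TMM library sizes. Positions and exon lengths are from GENCODE M21, which holds 21751 of 23418 distinct symbols, and 1276 more matched by synonym. Members and gene lists were chosen with earlier results of these data known. Named genes were all members and, per list, genes past the threshold, otherwise the 2 with the smallest p and the one with the most counts; near Smad7, the 2 nearest on each side and the 2 largest changes. The genes most like Smad2 are not reported here. The fit was tested on simulated data. Alternatives were DESeq2 1.42.0, limma-voom (limma 3.58.1), other size factors and filters, a fit that is not robust, a replicate block, covariates for the set of libraries and for sex (from Xist and Ddx3y), each library left out, and, added after seeing the data, other exon lengths.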

Additional observations from a re-analysis of the deposited data

How the results depend on the processing

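Over 16 alternative fits Smad7 kept its sign in all and its call in 15; leaving out 1 library gave log2 changes from -4.21 to -3.46, and the call ended without Smad7-/- replicate 2 (adjusted p = 0.0887), where the number of members called fell from 1 to 0 (range 0 to 1 over the 6 libraries left out). For the other 7 members, 0 of 112 fits passed, and 17 changed sign about 0, within -0.13 to 0.15. Leaving out 1 library, the range was -0.0015 to 0.151 for Smad1, -0.0716 to 0.0249 for Smad2, -0.0659 to 0.0987 for Smad3, -0.0725 to 0.0882 for Smad5, -0.0735 to 0.0591 for Smad6 and -0.126 to 0.0139 for Smad9. Smad4 kept its sign, at 0.0534 to 0.140 over all 16 alternatives, and was called in 0 of them. With the set of libraries as a covariate Smad3 was at -0.0549 and Smad6 at -0.0421. Smad6 was at -0.0019 by DESeq2, -0.0017 with RLE size factors and -0.0017 with sex as a covariate. The count of all genes called, 4, became 59 by DESeq2 with its own filter, 2 among genes whose mean reached 5 CPM, and 1 to 7 when 1 library was left out: 2, 1 and 7 without Smad7-/- replicates 1, 2 and 3. The cause was not tested. The WT ratio of BMP-branch to TGF-beta-branch SMADs moved from 0.979 to 1.05 without division by length and to 1.06 with the longest coding transcript. Residuals of same-numbered libraries correlated at 0.169, -0.03 and 0.09, and those of libraries with different numbers at -0.148 to 0.095. The labels name no litter or animal, so the main fit took no pairs. With a replicate block Smad7 was at -3.87 (SE 0.24) and the counts of calls were unchanged (4 genes, 1 member). The median over genes within 1 Mb and 5 Mb of Smad7 was 0.01 and 0.02, with 0 called. Depth limits only Smad7, with 41 to 80 counts in the mutant libraries.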
